A study of Mus musculus with 6 samples.

Results

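HGF-MET and MST1-RON signalling is a pair of related growth factor systems. The 8 genes described here are Hgf and Mst1 (the ligands), Met and Mst1r (their receptors), Hgfac and St14 (proteases that activate the ligands) and Spint1 and Spint2 (inhibitors of those proteases). They are 8 of the 24749 gene identifiers in the deposited table, found by matching Ensembl identifiers to symbols, and each had 1 row. Hgf was chosen from its fall in knockout kidneys, so its difference between genotypes is given as a description with no test. The other 7 genes were taken for their role in the pathway, with earlier results of these data known.

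Transcriptomes of whole mouse kidneys dissected at E15.5, a stage of active branching and nephron formation, were compared between 2 genotypes on a mixed strain background, with 3 libraries each. Knockout kidneys carried Foxd1cre and loxP-flanked alleles of both Yap and Taz, written Foxd1cre; Yapc/c;Tazc/c in the labels. Control kidneys were wild type and Cre negative, and the sources used here do not say whether they carried floxed alleles. Yap (Yap1) and Taz (Wwtr1) encode the transcriptional co-activators that the Hippo kinases restrain, and Foxd1 marks the progenitors of the kidney stroma. Cre therefore acts in stromal descendants, while the RNA came from the whole organ.

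HGF is secreted as an inactive precursor, mostly by mesenchymal cells. Cleavage into its active form lets it bind MET, a receptor tyrosine kinase of epithelial cells, where it promotes growth, motility and branching. MST1, also called macrophage-stimulating protein, is a relative of HGF made mainly by the liver, and it activates RON, the product of Mst1r, after the same kind of cleavage. The gene Mst1 must not be confused with Stk4, whose kinase in the Hippo pathway is also called MST1.

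Targeted and marker genes were read before the members. Wwtr1 lay between 17.7 and 20.2 FPKM (fragments per kilobase of transcript, corrected for the depth of the library) in wild-type and between 12.2 and 13.5 FPKM in knockout libraries. Yap1 ranged from 45.5 to 55.0 FPKM in wild-type and from 43.2 to 48.7 FPKM in knockout libraries, which overlap. Wwtr1 was called lower (log2 -0.51, limma adjusted p = 0.0235), and Yap1 was not called (log2 -0.16, limma adjusted p = 0.378). Over the 6 libraries, defining markers of epithelium (Cdh1, 25.1 to 33.8 FPKM, and Epcam, 61.5 to 74.1 FPKM) and endothelium (Pecam1, 31.7 to 38.3 FPKM) were present. So was the stromal marker Foxd1, at 6.86 to 9.16 FPKM in wild-type and 4.03 to 5.20 FPKM in knockout libraries, without overlap. Its log2 change was -0.65, and it was not called (limma adjusted p = 0.0886). Only knockout kidneys carried the Foxd1cre driver, and the part of the driver itself in the level of Foxd1 was not tested. Approximate depth was 12600000 to 15300000 fragments per library. Wild-type library 3 stood apart, with all 6 early proximal tubule markers below every other library.

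Hgf (chromosome 5, 16553495 to 16620152, plus strand, GRCm38) encodes the ligand of MET. It measured 3.99, 4.29 and 4.36 FPKM in the wild-type libraries and 1.70, 2.44 and 1.96 FPKM in the knockout libraries. The genotypes did not overlap, and knockout library 1 was the lowest. Means were 4.21 ± 0.202 and 2.03 ± 0.375 FPKM (SD, n = 3 each), so that the knockout mean was 48.2% of wild type. On the scale of log2(FPKM + 1), which understates changes of low genes, the difference was -0.79, and with a pseudocount of 0.1 it was -1.03. The level corresponds to about 85 to 213 fragments per library, taking the longest coding transcript of 3468 bases. Hgf shares 484 exon bases with the gene model Gm43489 on its own strand. Gm43489 has no row in the deposited table, so whether fragments there were divided between the models cannot be seen.

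**Figure D1:**
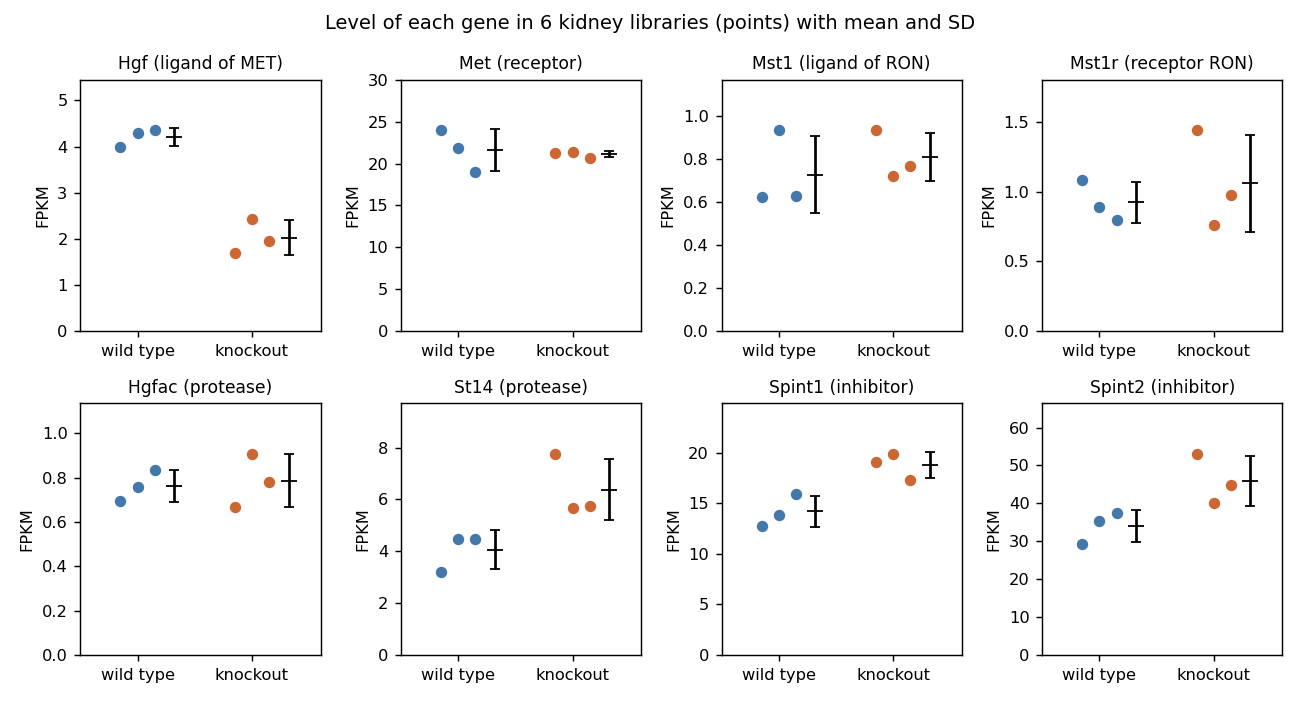
Level of each of the 8 genes in FPKM (vertical axes, starting at 0) in 3 wild-type (blue) and 3 knockout (orange) kidney libraries, drawn from replicate 1 to 3 within a genotype; the bar is the mean with its SD. Hgf sits between 1.70 and 2.44 FPKM in knockout and between 3.99 and 4.36 FPKM in wild-type libraries, while St14, Spint1 and Spint2 lie higher in every knockout library and the other 4 genes overlap.

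Because Hgf is normally a mesenchymal product, its level is set beside markers of the stroma. The 10 stromal markers, Foxd1 among them, summed to between 616 and 666 FPKM in wild-type and between 465 and 495 FPKM in knockout libraries. Of the 9 that were tested, 1 (Col3a1) was called lower, 6 had an unadjusted p under 0.05 in the lower direction and 1 lay above 0. Over all genes tested these shares were 0.604%, 6.94% and 49.6%. The median log2 change of the 9 markers was -0.49, with a range from -0.85 to 0.14, and -0.32 without wild-type library 3. The Col3a1 call was lost under quantile normalization, equal sums, plain moderation or the replicate block, and when wild-type library 2 or any single knockout library was left out. With the block, Col3a1 had a limma adjusted p of 0.109, and the 1 stromal marker called was Lum (log2 -0.85, limma adjusted p = 0.0272). The log2 ratio of Hgf to the stromal sum was -7.28, -7.16 and -7.25 in wild-type and -8.19, -7.58 and -7.96 in knockout libraries. This ratio was lower in each knockout library than in any wild-type library, with a mean difference of -0.68 on the log2 scale. Because Hgf was chosen for its fall, the ratio is a description without a test. Smooth muscle includes descendants of the Foxd1 lineage. Its 5 markers summed to between 149 and 180 FPKM in wild-type and between 53.2 and 78.7 FPKM in knockout libraries. Of them, 3 were called lower, against 0.604% of all genes tested. That count was 0 or 1 when any 1 library was left out, 1 with plain moderation and 0 with the replicate block. The knockout mean was 48.2% of wild type for Hgf, 76.2% for the stromal sum and 41.5% for the smooth muscle sum. Such sums weigh the highest genes most, here Col3a1 (275 FPKM on average in wild-type libraries) and Myl9 (102 FPKM). Single stromal markers ran from 35.5% of wild type (Dpt) through 64.8% (Col3a1) to 111% (Pdgfra). Single smooth muscle markers ran from 32.8% (Myl9) to 72.4% (Cnn1). In whole kidneys, fewer cells of a type and less RNA per cell cannot be told apart, and the part of these markers in the level of Hgf was not tested.

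Upstream sequence is shown for Hgf, as the member that is lower in knockout kidneys, and for Spint1 and Spint2, as members whose knockout libraries all lie higher. RefSeq promoter windows on GRCm38.p6, which run from 250 bases before to 50 bases after a start, were found for 7 of the 8 genes (9 windows). The 250 bases before the start are printed 5′ to 3′ on the strand of the gene, with each CpG dinucleotide in capitals. They are chr5:16553245-16553494 for Hgf (plus strand, the more upstream of its 2 starts), chr2:119237110-119237359 for Spint1 (plus strand) and chr7:29281978-29282227 for Spint2 (minus strand), and none of them overlaps an exon annotated in GENCODE.
Hgf: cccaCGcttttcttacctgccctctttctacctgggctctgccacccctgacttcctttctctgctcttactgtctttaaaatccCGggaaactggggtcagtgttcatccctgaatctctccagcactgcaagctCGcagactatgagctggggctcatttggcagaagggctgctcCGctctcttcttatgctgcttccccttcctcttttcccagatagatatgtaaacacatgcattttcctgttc
Spint1: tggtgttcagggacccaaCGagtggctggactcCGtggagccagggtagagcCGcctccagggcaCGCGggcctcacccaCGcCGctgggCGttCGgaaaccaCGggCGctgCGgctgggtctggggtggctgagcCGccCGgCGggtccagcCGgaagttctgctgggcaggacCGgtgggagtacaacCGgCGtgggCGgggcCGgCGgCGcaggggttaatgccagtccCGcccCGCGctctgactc
Spint2: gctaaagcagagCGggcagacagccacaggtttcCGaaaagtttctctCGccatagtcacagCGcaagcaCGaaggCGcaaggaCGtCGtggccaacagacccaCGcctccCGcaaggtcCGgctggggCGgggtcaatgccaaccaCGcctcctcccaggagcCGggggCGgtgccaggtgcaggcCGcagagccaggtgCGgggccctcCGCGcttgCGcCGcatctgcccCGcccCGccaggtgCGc

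These stretches hold 4 CpG dinucleotides for Hgf, 26 for Spint1 and 24 for Spint2, at a G and C content of 50.8%, 72.8% and 69.6%. Over the whole 300-base windows, Met (34), Spint1 (28) and Spint2 (26) were rich in CpG, while Hgf (7 and 6 at its 2 starts), Mst1r (8 and 9), Mst1 (5) and Hgfac (2) held 9 or fewer. The median over all 32851 windows was 7. The letters GGAATG, the core recognised by TEAD factors through which YAP and TAZ act, were searched on both strands. They occur in 0 of the 9 windows of these genes and in 14.7% of all windows. This says only that these letters are not in these windows.

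Met (chromosome 6, 17463800 to 17573980, plus strand), the receptor of HGF, did not pass the test. It measured 24.0, 21.8 and 19.0 FPKM in wild-type and 21.3, 21.4 and 20.7 FPKM in knockout libraries. The wild-type libraries span the knockout libraries completely, with wild-type library 3 the lowest of all. Means were 21.6 ± 2.51 and 21.1 ± 0.354 FPKM (SD, n = 3 each), and the log2 change of -0.02 had a 95% confidence interval from -0.22 to 0.17 (limma adjusted p = 0.924).

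Epithelial markers were read in the same libraries, since MET is a receptor of epithelial cells. The 12 epithelial markers summed to between 392 and 436 FPKM in wild-type and between 488 and 494 FPKM in knockout libraries. All 12 lay above 0 (49.6% of all genes tested did, and 11 of the 12 without wild-type library 3). At an unadjusted p under 0.05, 8 lay higher (9.14% of all genes tested did, and 5 of the 12 without knockout library 3). Limma called 0 of the 12, and their median log2 change was 0.23. Without wild-type library 1 or 3, 1 was called (Cldn7 and Cldn4). Early proximal tubule markers, of another epithelial type, had a median log2 change of -0.22, with 2 of 6 above 0 and 0 called. That median was -0.51 without wild-type library 3, -0.03 without wild-type library 1, and -0.14 without wild-type library 2 or knockout library 2. Cdh1, the epithelial cadherin, lay at a log2 difference of 0.22 (limma adjusted p = 0.211, not called), and Epcam, an epithelial adhesion protein, at 0.17 (limma adjusted p = 0.254, not called). The log2 ratio of Met to the epithelial sum was -4.19, -4.25 and -4.37 in wild-type and -4.52, -4.52 and -4.58 in knockout libraries. Per summed epithelial marker, Met was lower in all 3 knockout libraries than in any wild-type library, while its own levels overlapped. This ratio is a description without a test and covers only the sum of these 12 markers. The early proximal tubule sum lay between 56.6 and 113 FPKM in wild-type and between 77.7 and 95.8 FPKM in knockout libraries, which overlap.

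The genes of the RON system were expressed at low level. Mst1 (chromosome 9, 108080436 to 108085003, plus strand) measured 0.623, 0.933 and 0.626 FPKM in wild-type and 0.934, 0.722 and 0.767 FPKM in knockout libraries. The genotypes overlap, and each value rests on only about 18 to 31 fragments. Its log2 change was 0.07, with a 95% confidence interval from -0.20 to 0.33 (limma adjusted p = 0.802). It shares 195 exon bases with Rnf123 on the opposite strand, from which it could not be separated if the libraries carry no strand information. Mst1r (chromosome 9, 107906873 to 107920383, plus strand), the receptor RON, measured 1.08, 0.892 and 0.796 FPKM in wild-type and 1.44, 0.762 and 0.975 FPKM in knockout libraries. Knockout libraries 1 and 2 were the highest and the lowest of the 6, so the genotypes overlap throughout. The log2 change of 0.09 had a 95% confidence interval from -0.24 to 0.42 (limma adjusted p = 0.794), and it was -0.04 without knockout library 1. Stk4, the Hippo kinase of the same protein name, averaged 16.7 ± 0.542 FPKM in wild-type libraries and 15.1 ± 0.259 FPKM after knockout (SD, n = 3 each; log2 -0.13, limma adjusted p = 0.302).

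Hgfac (chromosome 5, 35041509 to 35048461, plus strand) encodes a secreted protease, made mainly by the liver, that cleaves the HGF precursor. It measured 0.695, 0.756 and 0.836 FPKM in wild-type and 0.669, 0.908 and 0.781 FPKM in knockout libraries, about 19 to 26 fragments each, with overlapping genotypes. Its log2 change was 0.02 (95% confidence interval from -0.22 to 0.25, limma adjusted p = 0.948). Since Hgfac and Mst1 are known as liver genes, liver markers were read in the same libraries. The 10 liver markers summed to between 23.3 and 41.5 FPKM in wild-type and between 32.6 and 34.1 FPKM in knockout libraries, of which Afp (alpha-fetoprotein) made up 12.3 to 28.3 FPKM and Alb (albumin) 0.659 to 2.68 FPKM. Their part in the level of Hgfac and Mst1 was not tested.

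St14 (chromosome 9, 31089402 to 31131853, minus strand) encodes matriptase, a protease in the membrane of epithelial cells. It measured 3.19, 4.49 and 4.49 FPKM in wild-type and 7.76, 5.66 and 5.73 FPKM in knockout libraries. All knockout libraries lay above all wild-type libraries, with knockout library 1 highest and wild-type library 1 lowest. Means were 4.06 ± 0.748 and 6.38 ± 1.19 FPKM (SD, n = 3 each), 157% of wild type. The log2 change of 0.54 (95% confidence interval from 0.19 to 0.90) did not pass over all genes tested (limma adjusted p = 0.172, unadjusted 0.00751).

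In the inhibitor genes, too, every knockout library lay above every wild-type library. Spint1 (chromosome 2, 119237362 to 119249527, plus strand) encodes a Kunitz-type inhibitor of matriptase and of the HGFAC protease in epithelial membranes. It measured 12.8, 13.8 and 15.9 FPKM in wild-type and 19.1, 19.9 and 17.3 FPKM in knockout libraries, with no overlap. The knockout mean was 132% of wild type, and the log2 change was 0.38 (95% confidence interval from 0.18 to 0.59, limma adjusted p = 0.125, unadjusted 0.00297). Spint2 (chromosome 7, 29256323 to 29281912, minus strand), its relative with the same kind of inhibitory domain, measured 29.3, 35.4 and 37.4 FPKM in wild-type and 53.1, 40.0 and 44.8 FPKM in knockout libraries, again with no overlap. The knockout mean was 135% of wild type, and the log2 change was 0.42 (95% confidence interval from 0.12 to 0.72, limma adjusted p = 0.197, unadjusted 0.0127).

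Across these 7 genes, 0 were called by limma at an adjusted p under 0.05, a call that 0.734% of the 16899 genes tested received (0.13% higher and 0.604% lower), and 3 had an unadjusted p under 0.05, against 16.1% of all genes. Genotypes did not overlap for 3 of the 7, all higher in knockout kidneys, where 12.5% of all genes tested did so (24.3% in either direction). Their median log2 change was 0.09, against -0.002 over all genes. A test of 3 libraries against 3 by exact permutation cannot go below 0.1, which is the two-sided p it gave for St14, Spint1 and Spint2.

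**Figure D2:**
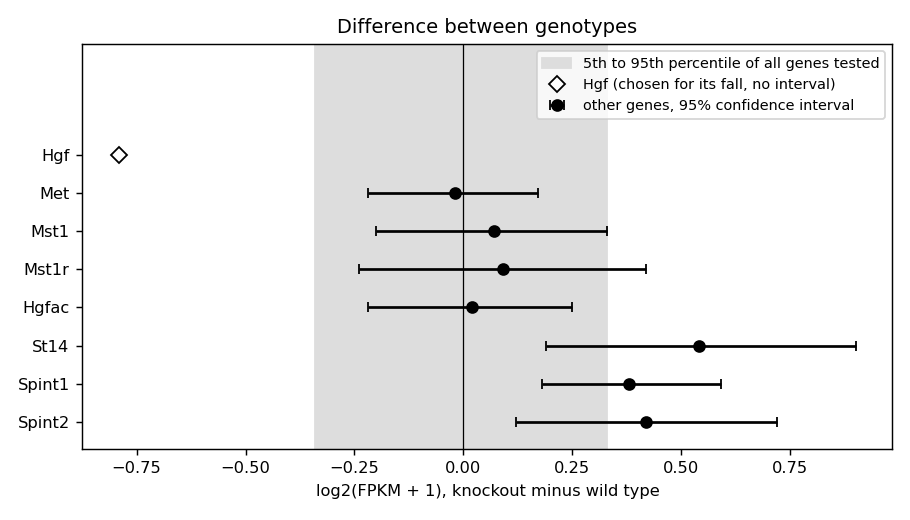
Difference in log2(FPKM + 1), knockout minus wild type (horizontal axis), for each gene; filled points carry limma's 95% confidence interval from 3 against 3 libraries, the open diamond is Hgf without one, and the grey band runs from the 5th (-0.34) to the 95th (0.33) percentile of all genes tested. Intervals of St14, Spint1 and Spint2 lie above 0, those of Met, Mst1, Mst1r and Hgfac include 0, and none of these 7 passed adjustment over all genes.

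The balance of inhibitors to protease was compared within each library, where scaling between libraries cancels. The linear ratio of Spint1 to St14 lay between 3.07 and 4.01 in wild-type and between 2.46 and 3.51 in knockout libraries, which overlap. The ratio of Spint2 to St14 lay between 7.89 and 9.18 in wild-type and between 6.84 and 7.83 in knockout libraries. Inhibitor transcripts therefore exceeded St14 transcripts, per length, in every library, and the Spint2 ratio was slightly lower in each knockout library, with a log2 difference of -0.22. The epithelial sum, like the 3 genes, was higher in each knockout library than in any wild-type library. Within the wild type the orders differed, and library 1 had the highest epithelial sum (105% of the wild-type mean) but the lowest St14, Spint1 and Spint2 (78.7%, 90.5% and 86.1%). Per summed epithelial marker, log2 differences were 0.41 for St14, 0.16 for Spint1 and 0.18 for Spint2, against within-genotype SDs of 0.27 to 0.35, 0.11 to 0.23 and 0.21 to 0.26. Without wild-type library 1 these differences were 0.21, 0.06 and 0.04. St14 was at 0.26 and Spint2 at 0.07 without knockout library 1, Spint1 at 0.29 and Spint2 at 0.30 without wild-type library 3, and Spint2 at 0.28 without knockout library 2. For Spint1 and Spint2 these ratios overlap between genotypes, from 0.0294 to 0.0405 against 0.0351 to 0.0404 and from 0.0672 to 0.0955 against 0.0815 to 0.109. For St14 they ran from 0.00732 to 0.0114 in wild-type and from 0.0115 to 0.0159 in knockout libraries, which meet without overlapping. The part of epithelial content in these differences was not tested.

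**Figure D3:**
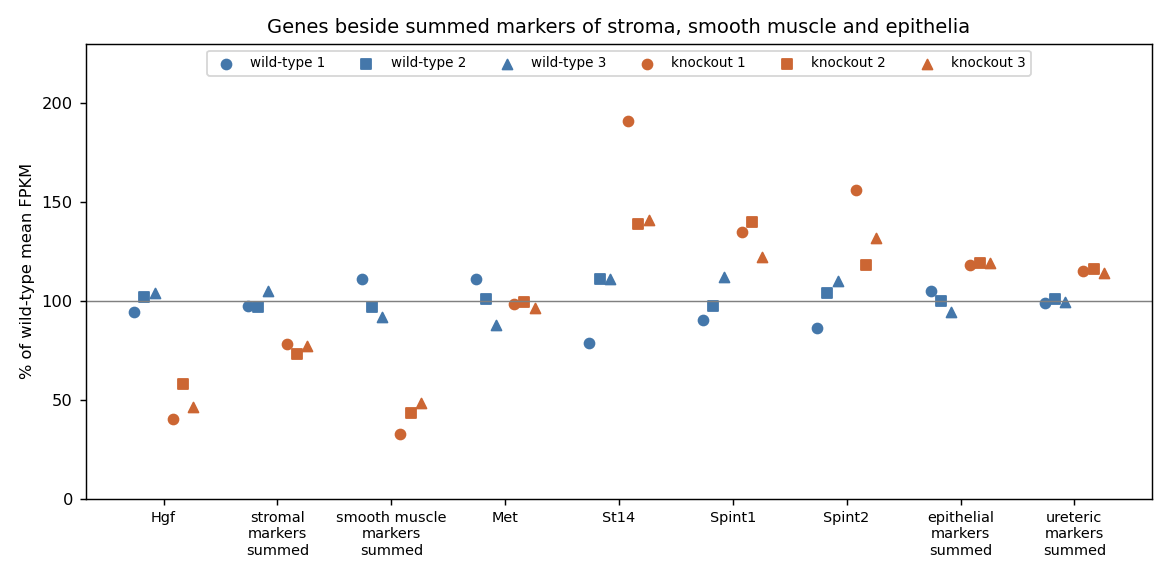
FPKM of 5 genes and 4 marker sums as a percentage of their own wild-type mean (vertical axis; grey line, 100%), by library (blue, wild type; orange, knockout; symbols, replicate number). Hgf lies at 40.2% to 57.8% in knockout libraries where the stromal sum lies at 73.4% to 78.2% and the smooth muscle sum at 32.8% to 48.5%; St14 reaches 139% to 191% where the epithelial sum is at 118% to 119%.

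The levels per length fell into the same broad order in both genotypes. In wild-type kidneys it ran from Spint2 (34.0 FPKM) through Met, Spint1 (14.2 FPKM), Hgf and St14 to Mst1r, Hgfac and Mst1 (0.727 FPKM). Ranges of Hgf and St14 overlapped there, as did those of Mst1r with Hgfac and of Hgfac with Mst1. In knockout kidneys St14 (6.38 FPKM) and Hgf (2.03 FPKM) no longer overlapped, and Mst1r, Mst1 and Hgfac were again not separated from their neighbours.

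Among the genes nearest to Hgf in pattern were Cntn6 and Ptgfr, with a root mean square difference over the 6 libraries of 0.110 and 0.112 after each gene was centred on its own mean of log2(FPKM + 1). They were compared among 3781 genes with at least 1 FPKM on average and a range over libraries of at least 0.5 times that of Hgf, for which the median difference was 0.538. Cntn6, a neural adhesion protein, averaged 2.28 FPKM in wild-type libraries and 0.879 FPKM after knockout. For Ptgfr, the receptor of prostaglandin F, these means were 2.50 and 1.12 FPKM. Hgf was chosen for its fall, so genes near it in pattern share that fall, and this closeness is a description without a test. For Met the nearest were Tmem176b (0.016), Dcdc2a (0.021) and Rbbp8 (0.024), among 15499 genes with a median of 0.145. All 3 share with Met the lowest value in wild-type library 3 and a knockout mean close to the wild-type mean, such as 73.9 and 71.7 FPKM for Tmem176b.

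Other genes of the pathway were taken from 6 lists ordered by role. The table held 77 of their 78 genes, of which 70 passed the filter. Limma called 0 of them. At an unadjusted p under 0.05, 20 lay higher (28.6%) and 8 lower (11.4%), against 9.14% and 6.94% of all genes tested. Without knockout library 1 these counts were 13 and 7. Their median log2 change was 0.05, and 41 of the 70 lay above 0.

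Among other proteases able to activate the HGF or MST1 precursor, 5 of the 11 in the table passed the filter, and the coagulation and plasma proteases F2, F11, F12 and Plg were at or near 0. Hpn, the membrane protease hepsin, measured 6.11, 6.06 and 5.44 FPKM in wild-type and 11.7, 9.03 and 7.75 FPKM in knockout libraries, without overlap (162% of wild type, log2 0.60, limma adjusted p = 0.118). Prss8, the membrane protease prostasin that acts together with matriptase, had a log2 change of 0.27 (limma adjusted p = 0.146). Plau, the urokinase gene, named after its values were seen, was on the other side of 0 (log2 -0.29, limma adjusted p = 0.247). Among 5 other tested inhibitors, Spint4 measured 0.641, 0.462 and 0.122 FPKM in wild-type and 0.679, 1.67 and 1.07 FPKM in knockout libraries (log2 0.59, limma adjusted p = 0.231). These levels are low. With an unadjusted p under 0.05, 1 of the 5 inhibitors (Spint4) lay higher, against 9.14% of all genes. That count was 0 without wild-type library 3 or without knockout library 2. Serpine2, a serpin that inhibits urokinase and thrombin, had a log2 change of 0.10 (limma adjusted p = 0.506).

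Partners of MET and RON at the cell surface had a median log2 change of 0.01 over 13 genes (-0.08 without wild-type library 1 and 0.05 without wild-type library 3). With an unadjusted p under 0.05, 1 of the 13 lay above and 4 below 0, against 9.14% and 6.94% of all genes. Nrp1, a co-receptor also of VEGF and semaphorins, measured 69.5, 67.2 and 66.6 FPKM in wild-type and 57.3, 58.3 and 58.3 FPKM in knockout libraries (log2 -0.22, limma adjusted p = 0.0975). Dcn, the matrix proteoglycan decorin, which can bind MET, measured 52.8, 49.3 and 81.9 FPKM in wild-type and 28.6, 26.8 and 32.6 FPKM in knockout libraries. Knockout libraries were all lower (47.8% of wild type, log2 -1.01), but wild-type library 3 was far above the others, and the adjusted p by limma was 0.145 with it and 0.0178 without it (log2 -0.78 without it).

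At an unadjusted p under 0.05, 8 of 24 adaptors and signal transducers lay higher and 2 lower, against 9.14% and 6.94% of all genes. These counts were 4 and 0 without wild-type library 1, 5 and 2 without wild-type library 2, and 4 and 2 without knockout library 1 or with equal sums. Src, a cytoplasmic tyrosine kinase, measured 10.9, 15.4 and 14.2 FPKM in wild-type and 23.4, 19.1 and 19.4 FPKM in knockout libraries, 153% of wild type (log2 0.58, limma adjusted p = 0.126). Pak4, a kinase downstream of small GTPases, had a log2 change of 0.36 (limma adjusted p = 0.152). At an unadjusted p under 0.05, 3 of 11 genes of MET turnover and dephosphorylation lay higher and 0 lower (all genes, 9.14% and 6.94%). Among the 3 were Ptpn1, a tyrosine phosphatase, and Hgs, an endosomal sorting protein, both at a log2 change of 0.35 (limma adjusted p = 0.174 and 0.225). The counts were 1 positive and 2 negative without wild-type library 1, and 1 and 0 without knockout library 1.

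The MAPK feedback genes, which are induced by many receptor tyrosine kinases and not by MET alone, had a median log2 change of 0.18 over 12 genes. With an unadjusted p under 0.05, 5 of the 12 lay above and 1 below 0, against 9.14% and 6.94% of all genes. Spry1, an inhibitor of receptor tyrosine kinase signalling, measured 20.0, 23.9 and 22.9 FPKM in wild-type and 38.8, 29.4 and 32.7 FPKM in knockout libraries, with no overlap (151% of wild type, log2 0.57, limma adjusted p = 0.0782). Dusp4, a phosphatase of MAP kinases, lay at 7.12 ± 0.361 and 9.20 ± 0.658 FPKM (SD, n = 3 each; log2 0.33, limma adjusted p = 0.135). Several MAPK feedback genes are known to be active in the ureteric bud and collecting duct. Markers of these cells summed to between 150 and 153 FPKM in wild-type and between 173 and 176 FPKM in knockout libraries. Of the 9 markers, 7 lay above 0 (49.6% of all genes tested did) and 0 were called. At an unadjusted p under 0.05, 5 of the markers lay higher (9.14% of all genes tested did, and 3 of the 9 without knockout library 1). Their part in the levels of the feedback genes was not tested.

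**Figure D4:**
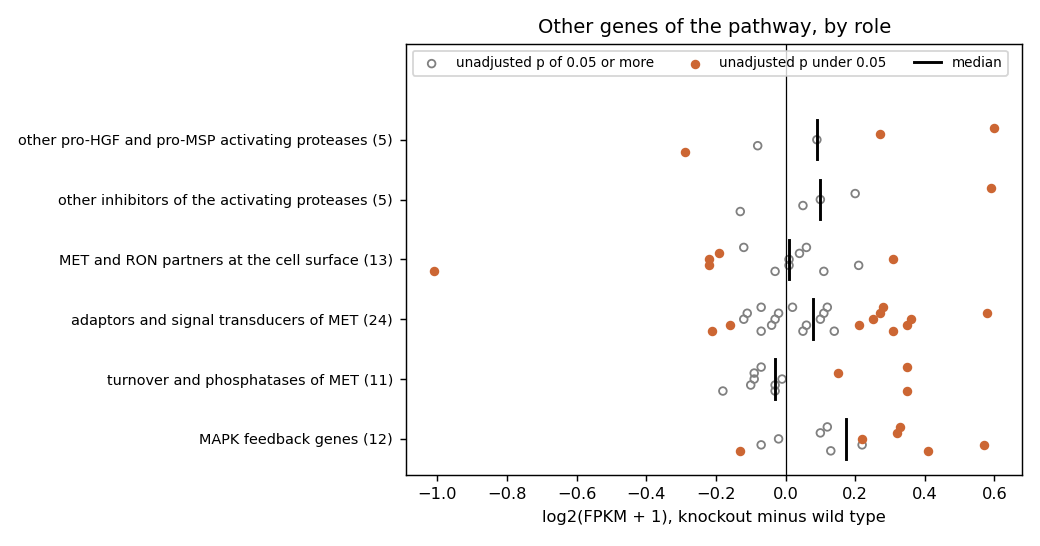
Log2 change, knockout minus wild type (horizontal axis), of each tested gene of the 6 pathway lists (rows, number tested in brackets); filled points have an unadjusted p under 0.05 and the black bar is the list's median. None passed adjustment over all genes; medians lie between -0.03 and 0.18, and Dcn at -1.01 stands farthest from 0.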

How the data were processed

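The submitters' processing notes name bcl2fastq 2.17.1.14, Salmon and the build GRCm38 (mm10). The sources used here give neither the version of Salmon nor the annotation release, the summing to genes or the strandedness. Values deposited by the authors are FPKM for 24749 Ensembl identifiers in 6 libraries. Symbols matched 24469, and coordinates are from GENCODE M21 on GRCm38. The table used here holds FPKM rather than counts, so depth was approximated from the lowest steps of genes with 1 transcript of at least 2 kb. On a transcript of 2 kb, 1 fragment was worth 0.0326 to 0.0397 FPKM.

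The 16899 genes averaging 0.5 FPKM or more were fitted as log2(FPKM + 1) with limma 3.58.1 in R 4.3.3 (genotype only, trend and robust moderation) and Benjamini-Hochberg adjustment over all of them, called under 0.05. The procedure was tested on simulated data with independent noise, which cannot show how effects shared within a library bear on the calls. No separate embryos or litters are named for the libraries, so p-values reflect only library-to-library spread, possibly technical. Members and lists were chosen with earlier results of these data known. All members are named, with the called genes or the 2 of smallest p per pathway list, defining markers and the 3 nearest patterns of Hgf and Met, of which 1 is not reported here.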

Additional observations from a re-analysis of the deposited data

How the results depend on the processing

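The 14 alternatives changed the pseudocount, the filter, the scaling, the moderation, the block or the libraries used. Of the 7 genes other than Hgf, 0 were called under any of them, and St14, Spint1, Spint2 and Mst1 stayed above 0 in each one that could be run, with Mst1, Mst1r and Hgfac not tested at a filter of 1 FPKM. Leaving out 1 library gave log2 changes from 0.42 to 0.61 for St14, 0.32 to 0.46 for Spint1 (adjusted p 0.0582 to 0.328 over all alternatives), 0.31 to 0.51 for Spint2, 0.02 to 0.15 for Mst1, -0.11 to 0.05 for Met, -0.04 to 0.19 for Mst1r and -0.03 to 0.07 for Hgfac. Signs changed for Met without wild-type library 1 (0.05), for Mst1r without knockout library 1 (-0.04) and for Hgfac without wild-type library 1 (-0.01) or knockout library 2 (-0.03). The Hgf difference was -0.88 to -0.71 with 1 library left out and -1.03 with a pseudocount of 0.1. Pathway genes called were 0, except 1 (Dcn) without wild-type library 3. Called genes in all numbered 124, but 75 without trend and robust moderation, and 54 to 158 with 1 library left out (54 without wild-type library 2, 68, 58 and 59 without knockout library 1, 2 and 3), which also leaves fewer samples. Replicate numbers are shared between genotypes, but deviations of same-numbered libraries correlated at only -0.01, -0.01 and 0.04, so the numbers were not taken to pair them. With the replicate block, 32 genes were called in all. Depth limits Mst1 and Hgfac most, at fewer than 32 fragments a library. The leave-one-out ratios were added after seeing the data, and per epithelial marker they ran from 0.21 to 0.53 for St14, 0.06 to 0.29 for Spint1 and 0.04 to 0.30 for Spint2.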
